A study of Homo sapiens with 6 samples.

Results

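The 54 genes described here encode proteins that license replication origins, build and run the replication fork, supply deoxynucleotides, drive entry into S phase, or repair stalled forks. They were taken by gene name from the 26025 genes of the deposited table, all 54 were listed, and all 54 passed the minimum mean of 10 normalized counts used for testing. RNA was sequenced from NCI-H1299, an established line of human non-small cell lung cancer cells. There were 3 libraries of control cells (Ctrl) and 3 libraries of cells given norepinephrine (NE), a catecholamine stress hormone and neurotransmitter, at 10 µM for 48 h. The cells of all 6 libraries were first kept in DMEM for 8 to 12 h and then in RPMI-1640 with 2% FBS. The controls were thus starved and kept in low serum too. The vehicle of the controls was given as DMSO in the titles and as PBS in the treatment description, and nothing stated that the libraries of a group came from separately grown cultures, so the p-values measure the spread between these libraries, which may be technical.

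Before S phase, ORC, CDC6 and CDT1 load the MCM2 to MCM7 helicase onto origins in an inactive form, and geminin (GMNN) later blocks CDT1 so that no origin is loaded again. CDC45 and the GINS complex then turn the loaded helicase on, polymerase alpha with primase starts each strand, and polymerases delta and epsilon extend it on the PCNA clamp. Most of these genes are transcribed under E2F factors when cells leave quiescence, so their RNA is widely used as a readout of proliferation in tumor cells.

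Of the 47 genes with an entry in the promoter table of RefSeq, which covers 250 bases before the transcription start, 18 held an E2F motif. The letters searched were TTTCCCGC, TTTGGCGC, TTTCGCGC and TTTGCCGC on both strands. The 4 windows printed first belong to genes with this motif that were lower in NE libraries, and they were taken from windows without any annotated exon. Their log2 fold changes, NE minus Ctrl, were -1.26 for CDT1, -1.25 for E2F1, -1.13 for GINS2 and -0.35 for MCM6. Each reads 5′ to 3′ on the strand of the gene, from GRCh38.p14, with the motif in capitals. The CDT1 window is chr16:88803539-88803788 on the plus strand, the E2F1 window is chr20:33686386-33686635 on the minus strand, the GINS2 window is chr16:85688955-85689204 on the minus strand, and the MCM6 window is chr2:135876444-135876693 on the minus strand.
CDT1: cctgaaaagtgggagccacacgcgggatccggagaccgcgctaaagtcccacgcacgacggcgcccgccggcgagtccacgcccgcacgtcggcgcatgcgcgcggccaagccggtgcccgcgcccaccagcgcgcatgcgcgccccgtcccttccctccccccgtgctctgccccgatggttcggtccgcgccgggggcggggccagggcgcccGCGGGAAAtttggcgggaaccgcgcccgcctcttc
E2F1: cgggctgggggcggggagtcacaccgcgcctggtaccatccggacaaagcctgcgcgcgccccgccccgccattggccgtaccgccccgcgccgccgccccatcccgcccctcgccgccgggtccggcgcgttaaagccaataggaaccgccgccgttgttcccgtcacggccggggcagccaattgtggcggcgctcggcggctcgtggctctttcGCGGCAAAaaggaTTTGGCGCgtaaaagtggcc
GINS2: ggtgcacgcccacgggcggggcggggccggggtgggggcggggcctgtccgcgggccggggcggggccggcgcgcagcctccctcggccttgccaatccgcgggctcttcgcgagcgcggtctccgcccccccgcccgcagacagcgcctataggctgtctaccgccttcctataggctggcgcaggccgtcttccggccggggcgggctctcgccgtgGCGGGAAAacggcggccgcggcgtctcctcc
MCM6: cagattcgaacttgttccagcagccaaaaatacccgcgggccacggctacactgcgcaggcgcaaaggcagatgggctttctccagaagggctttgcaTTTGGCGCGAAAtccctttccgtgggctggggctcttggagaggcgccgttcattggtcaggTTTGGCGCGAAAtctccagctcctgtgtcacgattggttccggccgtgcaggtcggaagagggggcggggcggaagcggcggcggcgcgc

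In the CDT1 window the motif started 35 bases before the transcription start, at -35, and in the GINS2 window it started at -31. The E2F1 window held the motif at -33 and -20. In the MCM6 window 4 matches made 2 overlapping pairs, starting at -152 and -148 and at -90 and -86. MCM10 held no such motif but a cyclic AMP response element, TGACGTCA, which binds CREB, a factor that protein kinase A activates downstream of beta-adrenergic receptors. Its window is chr10:13161308-13161557 on the plus strand, and the element, in capitals, started at -29.
MCM10: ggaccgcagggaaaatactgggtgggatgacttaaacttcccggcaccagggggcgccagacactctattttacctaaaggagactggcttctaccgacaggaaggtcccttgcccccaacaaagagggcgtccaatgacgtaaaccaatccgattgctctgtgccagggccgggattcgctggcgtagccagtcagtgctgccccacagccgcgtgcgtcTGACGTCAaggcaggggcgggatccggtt

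In NE-treated cells 31 of the 54 genes were significantly lower, 8 were significantly higher and 15 passed in neither direction, at an adjusted p under 0.05 from limma with Benjamini-Hochberg adjustment over all 15013 genes tested. Over all of those genes 25.5% were lower and 24.6% were higher. On the reads recovered from the values, edgeR and DESeq2 each called 31 of the 54 lower and 8 higher, and at an unadjusted p under 0.05 limma called 33 and 9. In the 4 role groups below with 0 genes higher, these tools called 0 higher at an unadjusted p under 0.05 as well. The median log2 fold change of the replication genes was -0.43, against 0.01 over all genes tested. All 3 NE libraries lay below all 3 Ctrl libraries for 35 of the 54 genes and above them for 9, where 28.9% and 29.7% of all genes did. When a log2 fold change of 1 or more in size was also required, 11 replication genes were lower (MCM5, MCM2, MCM7, CDT1, GINS2, GINS3, POLA2, POLD1, TK1, E2F1 and UHRF1) and 0 were higher, where 6.55% and 7.47% of all genes passed. Log2 fold changes are differences of log2(normalized count + 1). In bulk RNA, fewer cells in S phase and less of these RNAs per cell cannot be told apart.

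With scaling to total counts the median log2 fold change of all genes was 0.15, and on that scale 24 replication genes were lower and 9 higher, beside 19.9% and 30.5% of all genes. The calls of ORC6, CDC6, MCM6, GINS1, RFC5, RPA3 and DUT were lost on that scale, with limma adjusted p of 0.0592 to 0.117. The libraries also differed in how strongly counts followed the GC content of a gene's exons. After each library's trend on exon GC content was removed by a natural spline, the GC correction, 34 replication genes were lower and 0 were higher, where 19.0% and 13.0% of all genes passed. With a log2 fold change of 1 or more in size as well, 2 replication genes (GINS3 and POLA2) and 2.66% of all genes were lower. At an unadjusted p under 0.05 the corrected numbers were 38 lower and 1 higher. Ctrl replicate 3 stood apart from the other 2 Ctrl libraries, with 7305 genes at 0 reads against 4829 and 4833. The chi-square per degree of freedom between recovered reads was 2.86 for Ctrl replicates 1 and 2. It was 49.5 and 45.4 for these against Ctrl replicate 3. The p-values given without Ctrl replicate 3 thus take their Ctrl spread from a close pair of libraries. Without Ctrl replicate 3, 32 replication genes were lower and 10 were higher, beside 32.5% and 31.9% of all genes. Without it and with the GC correction, 37 were lower and 1 was higher, beside 23.7% and 19.0%, and 3 were lower by 1 or more, beside 3.61%. Each library held 16852751 to 17979206 reads on genes. The cell line markers KRT8, KRT18 and VIM were abundant in every library, at 5232 to 78252 normalized counts. Leukocyte markers summed to at most 6.28 normalized counts, endothelial markers to at most 52.9 and fibroblast markers to at most 42.9.

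**Figure D1:**
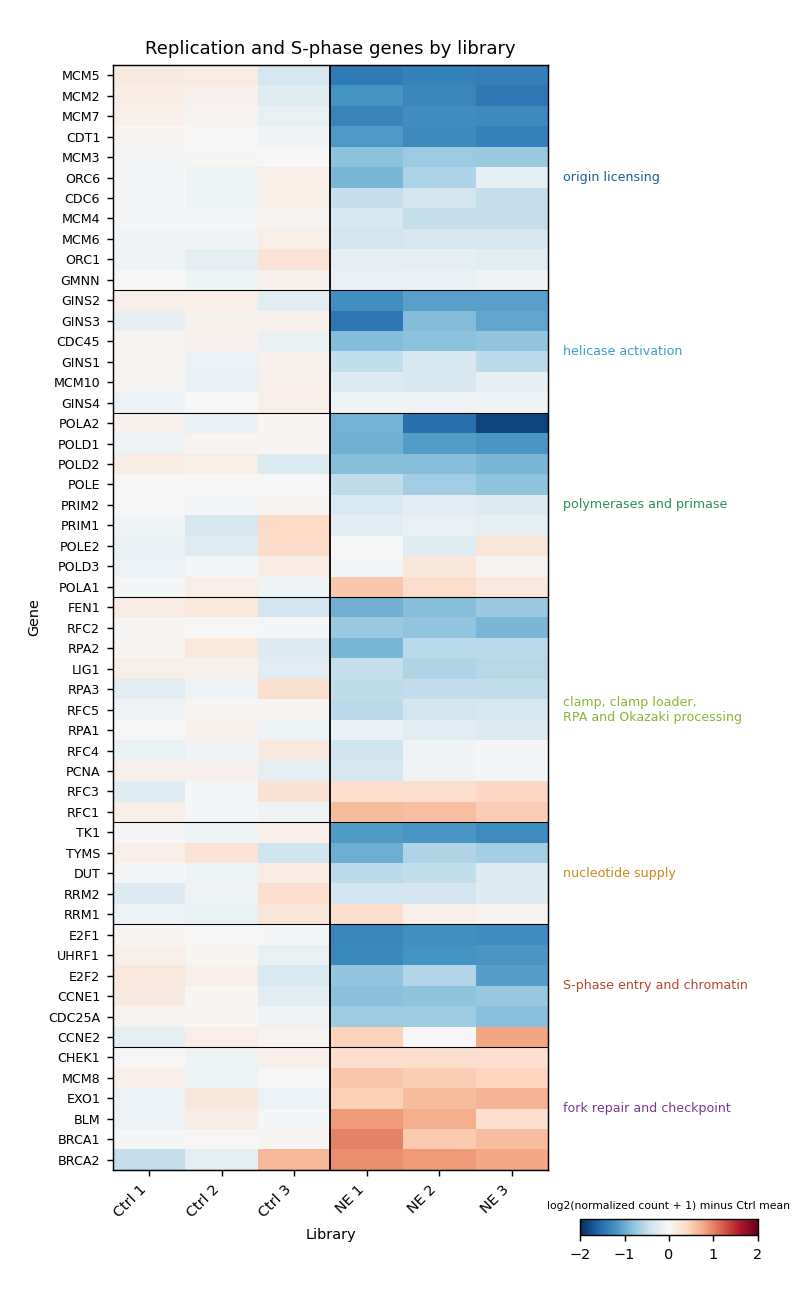
Level of each replication gene (rows, grouped by role) in each library (columns), as log2(normalized count + 1) minus the mean of the 3 Ctrl libraries. The NE columns are blue for most licensing, helicase and polymerase genes and red for the 6 fork repair genes. Ctrl 3 differs most from the other Ctrl columns, and BRCA2 is the gene with the largest difference there.

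Most origin licensing genes fell. Of 11 such genes 9 were lower and 0 higher, beside 25.5% and 24.6% of all genes, with a median log2 fold change of -0.58. After the GC correction 10 were lower, beside 19.0% of all genes, with a median of -0.78. MCM5 (ENSG00000100297, chr22:35400134-35425431), a subunit of the replicative helicase, had 3009, 2959.6 and 2086 normalized counts in Ctrl and 994, 1032 and 1026 in NE libraries. Every NE library was below every Ctrl library, and the Ctrl libraries spread more widely (SD 519) than the NE libraries (SD 20.6). The log2 fold change was -1.38 (SE 0.147, adjusted p = 0.000182 from limma). Ctrl replicate 3 was the lowest Ctrl library, and without it the log2 fold change was -1.55.

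MCM7 had 11559, 11209 and 9739 normalized counts in Ctrl and 4264, 4565 and 4465 in NE libraries, a log2 fold change of -1.29 (adjusted p = 5.54e-05 from limma). MCM2 had 2620.1, 2521 and 2012 in Ctrl and 1029, 959.8 and 875 in NE libraries, a log2 fold change of -1.31. These helicase subunits were thus separated without overlap. Exons of MCM2 share 23.6% of their length with a gene on the opposite strand, and strandedness of the counting was not stated, so its count may include reads of that gene. The 3 remaining subunits fell less. MCM3 had 3255, 3343 and 3304 normalized counts in Ctrl and 1859.7, 1999 and 1973 in NE libraries, a log2 fold change of -0.76. MCM4 had 6073, 6135 and 6498 in Ctrl and 4958, 4483 and 4468 in NE libraries, a log2 fold change of -0.43 that was -0.19 with quantile normalization (limma adjusted p = 0.118). MCM6 had 2609, 2610.1 and 2924 in Ctrl and 2089, 2151 and 2136 in NE libraries, a log2 fold change of -0.35, with adjusted p = 0.0145 from limma and 0.0587 without NE replicate 2. It did not pass with quantile normalization (0.0812) or scaling to total counts (0.117) either.

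The 6 subunits form 1 ring in equal numbers, but their RNAs did not fall equally. Their log2 fold changes spanned 1.03, from -1.38 for MCM5 to -0.35 for MCM6, while the GC content of their exons spanned 42.4% to 56.2%. After the GC correction the span was 0.44, from -0.97 to -0.53. The ratio of MCM5 to MCM6 was 1.15, 1.13 and 0.713 in Ctrl and 0.476, 0.480 and 0.481 in NE libraries. This ratio separated the groups, and its log2 difference of -1.03 became -0.19, with overlapping groups, after the GC correction.

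CDT1 (ENSG00000167513, chr16:88803789-88809258), the helicase loader whose promoter window was printed first, had 4130.2, 4055 and 3863 normalized counts in Ctrl and 1801, 1666 and 1567 in NE libraries. The groups lay far apart relative to their spread, with a log2 fold change of -1.26 (SE 0.0989, adjusted p = 5.54e-05 from limma) and of -0.63 after the GC correction (limma adjusted p = 0.00418). Its inhibitor GMNN had 789, 738 and 838 in Ctrl and 708, 719.6 and 758 in NE libraries. The GMNN groups overlapped, with a log2 fold change of -0.11 (95% interval -0.36 to 0.13, adjusted p = 0.418 from limma), which became 0.03 with scaling to total counts. The ratio of CDT1 to GMNN was 5.11 ± 0.454 in Ctrl and 2.31 ± 0.238 in NE libraries (SD, n = 3), a log2 difference of -1.15. After the GC correction GMNN was lower too, at -0.62 (adjusted p = 0.00133 from limma), and the log2 difference of the ratio was -0.00 with overlapping groups. CDT1 has an exon GC content of 64.3% and GMNN of 41.0%.

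CDC6, the ATPase that recruits CDT1, had 915, 871 and 1012 normalized counts in Ctrl and 671, 719.6 and 669.8 in NE libraries, a log2 fold change of -0.44 (adjusted p = 0.00986 from limma). ORC6, a small subunit of the origin recognition complex, had 627, 595 and 706 in Ctrl and 338, 416 and 563 in NE libraries. NE replicate 3 came close to the Ctrl range, and the adjusted p of 0.0264 from limma was 0.0524 without Ctrl replicate 1, 0.0979 without NE replicate 1 and 0.0834 without NE replicate 2. ORC1, the subunit that carries the ATP-binding motor of the complex, had 405, 378 and 523 in Ctrl and 382, 375 and 373 in NE libraries. Its groups overlapped, and its log2 fold change of -0.20 became 0.17 with the GC correction and without Ctrl replicate 3.

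Among the 6 genes of helicase activation 4 were lower and 0 higher, beside 25.5% and 24.6% of all genes. Their median log2 fold change was -0.64, and 5 were lower after the GC correction, beside 19.0% of all genes. GINS2 (ENSG00000131153, chr16:85676198-85690073) had 1169.7, 1198 and 930.0 normalized counts in Ctrl and 466, 512 and 514 in NE libraries. The highest NE library lay well below the lowest Ctrl library, with a log2 fold change of -1.13 (SE 0.131, adjusted p = 0.000261 from limma). GINS3 had 352, 413 and 417 in Ctrl and 143, 215 and 191 in NE libraries, a log2 fold change of -1.12, and GINS1 had 617, 557 and 636 in Ctrl and 429, 481 and 419 in NE libraries, a log2 fold change of -0.44. The GINS1 adjusted p was 0.014 from limma, 0.0505 without Ctrl replicate 1 and 0.0558 without NE replicate 3. GINS4 had 275, 297 and 324 in Ctrl and 281, 285 and 283 in NE libraries, and its groups overlapped. Its log2 fold change was -0.08 (95% interval -0.37 to 0.22), and 0.06 with scaling to total counts, and 23.4% of its exon length is shared with other genes.

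The 4 GINS proteins also form a complex with 1 copy of each. The span of their log2 fold changes was 1.06, and it was 1.16 after the GC correction, so the correction did not narrow it. The ratio of GINS2 to GINS4 was 4.25, 4.04 and 2.87 in Ctrl and 1.66, 1.80 and 1.82 in NE libraries. The groups of this ratio did not overlap, and its log2 difference was -1.06 and remained -0.91 after the correction. CDC45, which joins GINS and the MCM ring in the active helicase, had 868, 900.1 and 775 normalized counts in Ctrl and 462, 477 and 489.8 in NE libraries, a log2 fold change of -0.83 (adjusted p = 0.000538 from limma). MCM10, which helps the helicase start to unwind, had 470.2, 422 and 499 in Ctrl and 381, 372 and 411 in NE libraries. Its groups did not overlap, yet the log2 fold change of -0.25 did not pass (adjusted p = 0.119 from limma) except after the GC correction, where it was -0.56 (adjusted p = 0.00479 from limma).

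Of the 9 polymerase and primase genes 4 were lower (POLA2, POLD1, POLD2 and POLE) and 1 was higher (POLA1). Of all genes tested 25.5% were lower and 24.6% higher. The 2 subunits of polymerase alpha moved in opposite directions. POLA2 (ENSG00000014138, chr11:65261913-65305959), the accessory subunit, had 316, 271 and 306 normalized counts in Ctrl and 153, 104 and 81.3 in NE libraries. All NE libraries lay far below the Ctrl libraries, and the log2 fold change was -1.44 (SE 0.226, adjusted p = 0.000975 from limma). This was the largest fall of the 54 genes with all 6 libraries, while without Ctrl replicate 3 POLA2 was at -1.42 and MCM5 fell further, at -1.55. The value was -1.39 after the GC correction, and 21.3% of the exon length of POLA2 is shared with other genes. POLA1, the catalytic subunit, had 531, 598 and 513 in Ctrl and 792, 695 and 634 in NE libraries. The log2 fold change of POLA1 was 0.37 (adjusted p = 0.0403 from limma), became -0.21 after the GC correction, and did not pass without Ctrl replicate 1 (0.109), Ctrl replicate 2 (0.0531), NE replicate 1 (0.134) or NE replicate 2 (0.106).

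The ratio of POLA2 to POLA1 was 0.596, 0.452 and 0.597 in Ctrl and 0.194, 0.149 and 0.128 in NE libraries. The log2 difference of this ratio was -1.81, and after the GC correction it was -1.18 with the groups still apart. PRIM1 and PRIM2 encode primase, which lays the RNA primer. PRIM2 had 571, 558 and 595 normalized counts in Ctrl and 462, 490.1 and 477 in NE libraries, a log2 fold change of -0.27 (adjusted p = 0.0694 from limma). PRIM1 had 229, 194 and 318 in Ctrl and 206, 217 and 210.2 in NE libraries, with overlapping groups and a log2 fold change of -0.20. Both passed as lower after the GC correction, at -0.90 for PRIM2 and -0.61 for PRIM1.

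POLD1, the catalytic subunit of polymerase delta, had 872, 963 and 953 normalized counts in Ctrl and 476, 427 and 414 in NE libraries. The groups did not overlap, with a log2 fold change of -1.08 (adjusted p = 0.000188 from limma) that was -0.44 (adjusted p = 0.0598) once GC content was corrected. POLD2 had 5546, 5399.6 and 4126 in Ctrl and 2751, 2756 and 2643 in NE libraries, a log2 fold change of -0.87, while POLD3 had 401, 423 and 479 in Ctrl and 428, 508 and 449.6 in NE libraries. POLD3 overlapped between groups, and its log2 fold change of 0.09 was -0.24 after the GC correction. The span over these delta subunits was 1.17, and 0.20 after the correction. POLE, the catalytic subunit of the leading strand polymerase epsilon, had 2112, 2119 and 2099 in Ctrl and 1477, 1304 and 1209 in NE libraries. Its log2 fold change of -0.67 (adjusted p = 0.00108 from limma) became -0.26 after the correction (adjusted p = 0.125 from limma). POLE2 had 143, 133 and 203 in Ctrl and 158, 133 and 186 in NE libraries, with overlapping groups and a log2 fold change of 0.01 that was -0.58 after the correction (adjusted p = 0.0312 from limma) and also below 0 with TMM scaling, quantile normalization, edgeR and DESeq2.

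**Figure D2:**
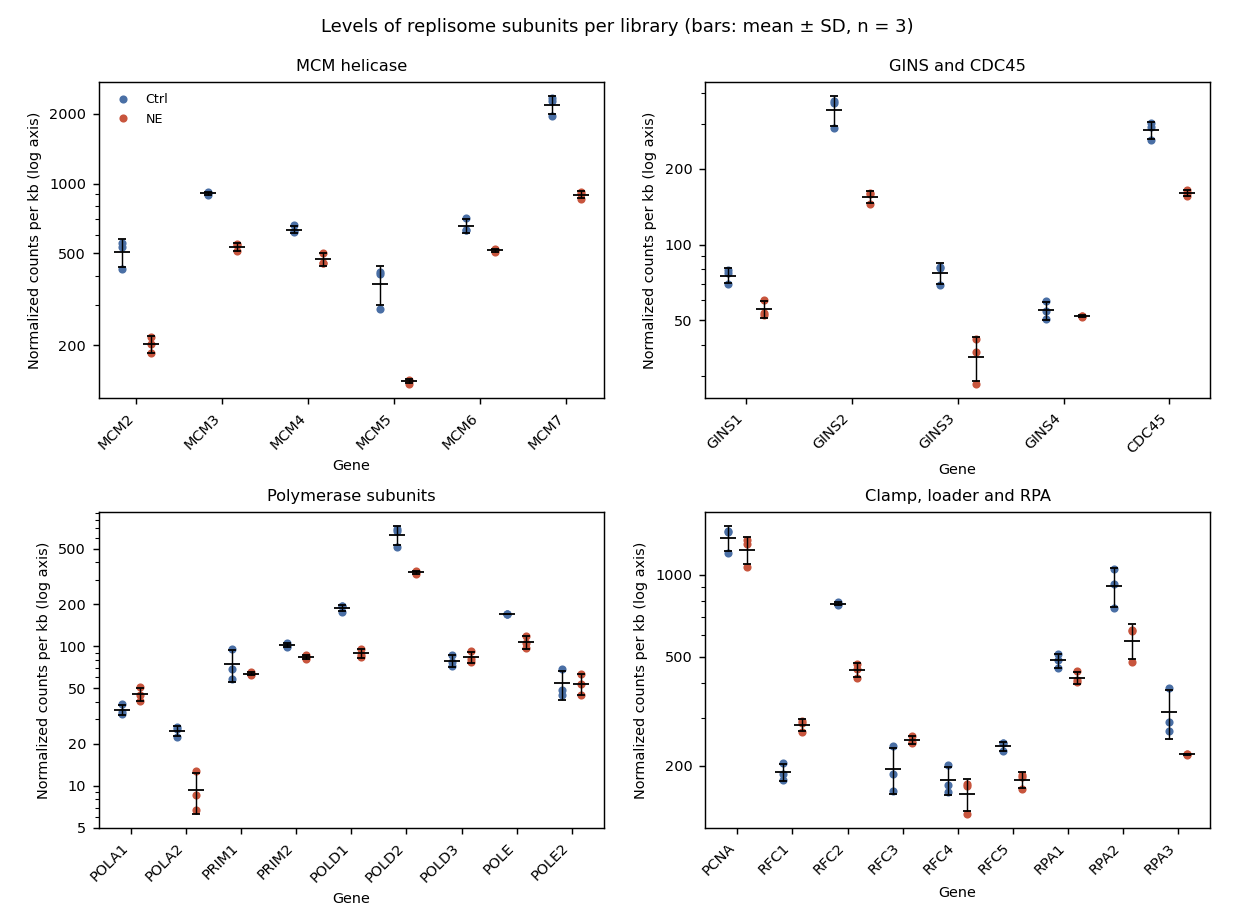
Normalized counts per kilobase of merged exons (log axis) for subunits of the helicase, GINS with CDC45, the polymerases, and the clamp, clamp loader and RPA. Points are the 3 libraries of each group, and bars show mean ± SD. MCM7 fell from 2185 to 893 per kilobase, while GINS4, POLD3, POLE2 and PCNA have overlapping groups.

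Of the 11 genes for the clamp, its loader, RPA and Okazaki fragment processing 6 were lower and 1 was higher. These counts stand beside 25.5% and 24.6% of all genes, and the median log2 fold change was -0.41. PCNA, the sliding clamp, had 2038, 2018 and 1679.6 normalized counts in Ctrl and 1504, 1819.9 and 1879.6 in NE libraries. The groups of PCNA overlapped, and its log2 fold change was -0.14 (95% interval -0.43 to 0.15, adjusted p = 0.379 from limma). It passed after the GC correction, at -0.35 (adjusted p = 0.0443 from limma). The clamp loader RFC has 5 subunits, of which 1 rose, 2 fell and 2 did not pass. RFC1, the large subunit, had 1369.8, 1245 and 1192 in Ctrl and 1963, 1922 and 1789 in NE libraries, a log2 fold change of 0.58 (SE 0.104, adjusted p = 0.00191 from limma). RFC2 had 1761, 1729.7 and 1713 in Ctrl and 1040.5, 1002 and 925 in NE libraries, a log2 fold change of -0.81 (adjusted p = 0.000339 from limma). Both genes separated the groups, in opposite directions.

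RFC5 had 733, 783 and 784 normalized counts in Ctrl and 533, 592 and 602 in NE libraries, a log2 fold change of -0.41, with adjusted p = 0.0131 from limma and 0.0571 without Ctrl replicate 2. RFC4 had 481, 507 and 601 in Ctrl and 399, 504 and 513 in NE libraries and overlapped between groups. Its log2 fold change of -0.17 did not pass (adjusted p = 0.365 from limma). After the GC correction RFC4 passed as lower, at -0.43 (adjusted p = 0.0332 from limma). RFC3 had 463, 532 and 673 in Ctrl and 692, 699 and 734 in NE libraries, with a log2 fold change of 0.37 that did not pass (adjusted p = 0.0664 from limma), was 0.51 without Ctrl replicate 3 (adjusted p = 0.000735 from limma) and was -0.25 after the GC correction. The log2 fold changes of the loader subunits thus spanned 1.39, and 0.74 after the correction. The ratio of RFC2 to RFC1 was 1.37 ± 0.0774 in Ctrl and 0.523 ± 0.00662 in NE libraries (SD, n = 3), a log2 difference of -1.39 that was -0.61 after the correction with the groups still apart. After the correction RFC1 stood at 0.11 and no longer passed (adjusted p = 0.487 from limma), so the rise of RFC1 depended on this choice.

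RPA coats single-stranded DNA at the fork. RPA2 had 1838, 2074 and 1496 normalized counts in Ctrl and 946, 1229 and 1239 in NE libraries, a log2 fold change of -0.66 (adjusted p = 0.00665 from limma). RPA3 had 865, 931 and 1246 in Ctrl and 707, 714 and 713 in NE libraries, a log2 fold change of -0.49. The adjusted p of RPA3 was 0.0193 from limma, and 0.0608, 0.0629 and 0.0582 without NE replicate 1, 2 or 3. RPA1, the large subunit, had 2685, 2815 and 2505 in Ctrl and 2433, 2269 and 2217 in NE libraries, and its log2 fold change of -0.21 passed without Ctrl replicate 3 (adjusted p = 0.0144 from limma) but not with it (0.104). FEN1, the flap nuclease that trims Okazaki fragments, had 1322, 1360.5 and 902 in Ctrl and 601, 649.9 and 703 in NE libraries, a log2 fold change of -0.85. LIG1, the ligase that seals them, had 678, 664 and 535 in Ctrl and 449, 409 and 424 in NE libraries, a log2 fold change of -0.54 (adjusted p = 0.00811 from limma). FEN1 and LIG1 both separated the groups, and LIG1 was at -0.12 after the GC correction (limma adjusted p = 0.418).

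Of the 5 genes of nucleotide supply 3 were lower and 0 higher, beside 25.5% and 24.6% of all genes. TK1 (ENSG00000167900, chr17:78174091-78187233), the thymidine salvage kinase, had 2729, 2641 and 2960.4 normalized counts in Ctrl and 1268, 1236 and 1163 in NE libraries. The groups were separated by a wide gap, with a log2 fold change of -1.18 (SE 0.1, adjusted p = 7.61e-05 from limma) and -0.58 after the GC correction. TYMS, thymidylate synthase, had 764, 842 and 527 in Ctrl and 355, 459 and 435 in NE libraries, a log2 fold change of -0.75 (adjusted p = 0.00913 from limma). Of the exon length of TYMS 47.9% is shared with other genes, mostly ENOSF1 on the opposite strand. DUT, which clears dUTP, had 1759, 1674 and 1988 in Ctrl and 1247, 1287 and 1498 in NE libraries, a log2 fold change of -0.43, with adjusted p = 0.0143 from limma, 0.0548 without NE replicate 1 and 0.0677 without NE replicate 2.

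Ribonucleotide reductase makes deoxynucleotides from a large subunit, RRM1, and a small subunit, RRM2. RRM2 had 1690.2, 1926 and 2503 normalized counts in Ctrl and 1546, 1549 and 1679.5 in NE libraries. All NE libraries lay below the Ctrl libraries by a narrow gap, and the log2 fold change of -0.34 did not pass (adjusted p = 0.0786 from limma) except without Ctrl replicate 1 (0.0313). RRM1 had 1291, 1266 and 1634 in Ctrl and 1744, 1492 and 1436 in NE libraries, with overlapping groups. The log2 fold change of RRM1 was 0.16, was 0.28 without Ctrl replicate 3 (adjusted p = 0.0229 from limma), and was -0.21 after the GC correction.

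Of the 6 genes of S-phase entry and chromatin 5 were lower and 0 higher, beside 25.5% and 24.6% of all genes. Their median log2 fold change was -0.81. After the GC correction 4 were lower, beside 19.0% of all genes, with a median of -0.54. E2F1 (ENSG00000101412, chr20:33675477-33686385), an activating E2F factor, had 1277, 1253 and 1219 normalized counts in Ctrl and 507, 536 and 530.0 in NE libraries. The libraries within each group were nearly level, and the log2 fold change was -1.25 (SE 0.103, adjusted p = 6.89e-05 from limma), or -0.65 after the GC correction. E2F2 had 559, 517 and 392 in Ctrl and 281, 322 and 225 in NE libraries, a log2 fold change of -0.83 (adjusted p = 0.00513 from limma) that did not pass after the GC correction, at -0.36 (adjusted p = 0.0842 from limma). UHRF1, which carries DNA methylation through replication, had 2034, 1942 and 1698 in Ctrl and 771, 826 and 839 in NE libraries, a log2 fold change of -1.22. In each of these genes the NE libraries lay wholly below the Ctrl libraries.

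CDC25A, the phosphatase that activates CDK2, had 1160.3, 1131 and 1058 normalized counts in Ctrl and 681, 679.9 and 628 in NE libraries, a log2 fold change of -0.75 (adjusted p = 0.000604 from limma). CCNE1, a cyclin that drives entry into S phase with CDK2, had 797, 725 and 606 in Ctrl and 395, 405 and 415 in NE libraries, a log2 fold change of -0.80 (adjusted p = 0.00127 from limma). Both fell without overlap between the groups. The related cyclin CCNE2 had 88.0, 111 and 105 in Ctrl and 139, 99.8 and 175 in NE libraries. The CCNE2 groups overlapped, its log2 fold change of 0.41 did not pass (adjusted p = 0.162 from limma) and became -0.16 after the GC correction, and 37.1% of its exon length is shared with other genes, mostly INTS8.

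The 6 genes of fork repair and checkpoint signalling were the only role group in which all members rose, with a median log2 fold change of 0.61. Over all genes tested 24.6% were higher. The exon GC content of these 6 genes is 36.9% to 44.2%, and of all tested genes under 45%, 50.1% were higher and 3.82% lower. After the GC correction 0 of the 6 passed in limma, 1 was higher at an unadjusted p under 0.05, and the median was 0.16. Without the correction edgeR and DESeq2 on the recovered reads each called all 6 higher. BRCA1, which with its partners protects forks and repairs breaks by homologous recombination, had 346, 350.5 and 366 normalized counts in Ctrl and 706, 510.4 and 544 in NE libraries. The NE libraries were all above the Ctrl libraries but spread more widely, and the log2 fold change was 0.71 (SE 0.146, adjusted p = 0.00355 from limma), or 0.31 after the GC correction (limma adjusted p = 0.087).

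BRCA2, a mediator of homologous recombination, had 179, 219 and 393 normalized counts in Ctrl and 473, 448 and 424 in NE libraries. Ctrl replicate 3 lay far above the other 2 Ctrl libraries and just below the lowest NE library. The log2 fold change of BRCA2 was 0.85 (SE 0.254, adjusted p = 0.0208 from limma), 1.17 without Ctrl replicate 3, 0.15 after the GC correction, and 0.34 with both (adjusted p = 0.0393 from limma). Leaving out any 1 of the other 5 libraries gave adjusted p of 0.0534 to 0.0804. BLM, a helicase that resolves recombination intermediates, had 212, 252 and 223 in Ctrl and 415, 377 and 285 in NE libraries. NE replicate 3 was the lowest NE library for BLM, and the adjusted p of 0.0126 from limma was 0.0565 without NE replicate 1 and 0.0551 without NE replicate 2.

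EXO1, a nuclease that resects broken ends, had 289, 367 and 287 normalized counts in Ctrl and 433, 487 and 502 in NE libraries, a log2 fold change of 0.60 (adjusted p = 0.00773 from limma). MCM8, a helicase of recombination that is not part of the MCM2 to MCM7 ring, had 495, 433 and 465 in Ctrl and 683, 651 and 629 in NE libraries, a log2 fold change of 0.49 that was 0.06 after the GC correction and below 0 with length corrected too, and 33.3% of its exon length is shared with another gene. CHEK1, the checkpoint kinase activated by ATR, had 955, 884 and 1020.1 in Ctrl and 1212, 1213 and 1204 in NE libraries. The NE libraries were all higher and close together, but the log2 fold change of CHEK1 was small, at 0.35 (adjusted p = 0.0215 from limma). It became -0.10 after the GC correction, and leaving out any library but Ctrl replicate 3 gave adjusted p of 0.0538 to 0.109.

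**Figure D3:**
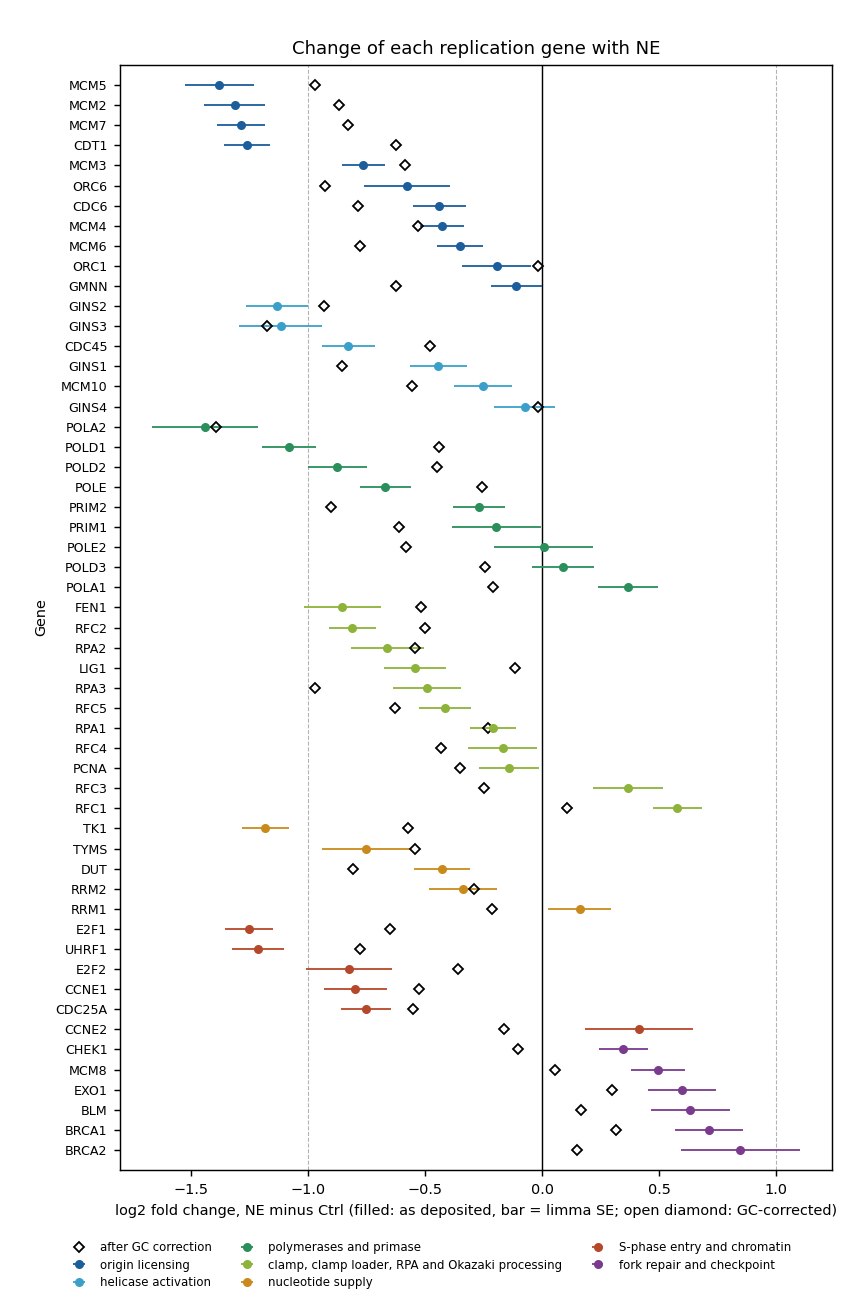
Log2 fold change, NE minus Ctrl, of each replication gene grouped by role. Filled points are the values as deposited with the limma standard error as bars, open diamonds are the values after the GC correction, and dashed lines mark an absolute change of 1. Falls of MCM5, GINS3 and POLA2 stay near or beyond 1 in both, and the fork repair genes move from 0.35 to 0.85 toward 0.

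The change with NE followed exon GC content across the 54 genes, with a Spearman correlation of -0.81 that is across genes measured in the same 6 libraries and is given without a test. Over 14955 tested genes the correlation was -0.64, and over the 54 genes it was -0.20 after the GC correction. Ctrl replicate 3 compared with the other 2 Ctrl libraries showed a correlation of -0.58 over the 54 genes, so libraries of 1 group also differed along GC content. Among the 24 replication genes with exon GC content under 45%, 8 were higher and 6 lower, where 50.1% and 3.82% of all tested genes in that class were. Among the 9 genes between 45% and 50%, 0 were higher and 5 lower, where 17.1% and 19.0% of all genes were. Among the 21 genes of 50% or more, 0 were higher and 20 lower, where 3.62% and 49.2% of all genes were. In all 3 classes the median of the replication genes was below that of all genes, at 0.05 against 0.53, -0.41 against 0.00 and -0.85 against -0.54. After the correction 12, 6 and 16 genes of these classes were lower, with medians of -0.34, -0.53 and -0.55. Of all genes in these classes 17.7%, 20.2% and 19.6% were then lower, with medians of 0.01, -0.06 and -0.08. The part of GC content in these changes beyond this correction was not tested.

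**Figure D4:**
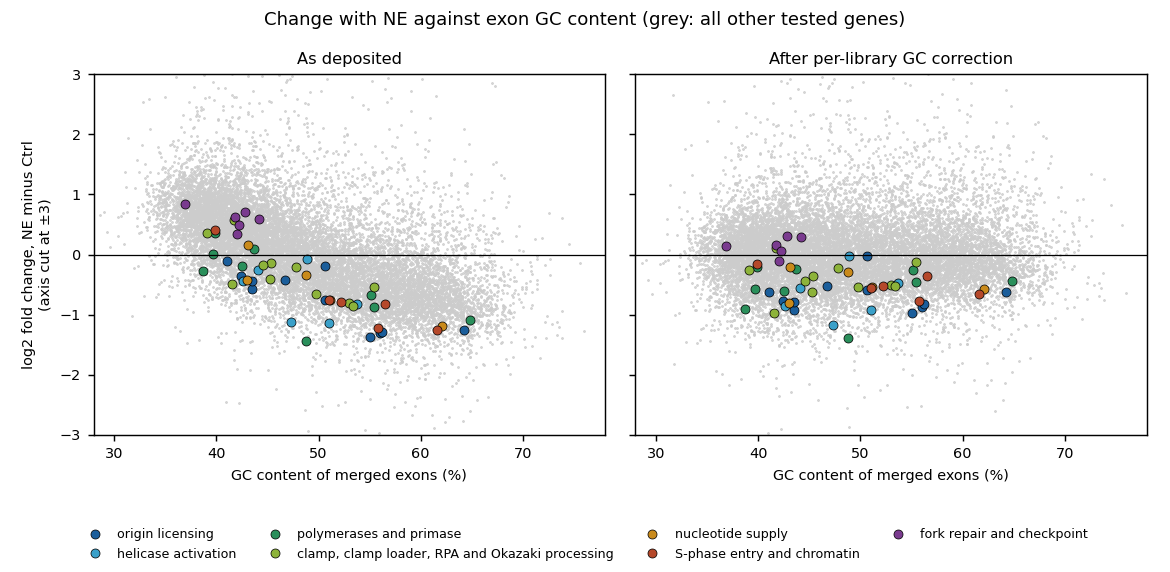
Log2 fold change, NE minus Ctrl, against the GC content of merged exons, as deposited (left) and after each library's trend was removed (right). Colored points are the 54 replication genes by role and grey points are the other tested genes. The correlation over the 54 genes is -0.81 on the left and -0.20 on the right, where most colored points lie below 0.

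The E2F motif occurred in 38.3% of the 47 promoters matched and in 5.69% of the promoters of 10481 tested genes. Of the 18 genes that held it 14 were lower and 1 was higher, with a median log2 fold change of -0.75. Of the 29 genes without it 13 were lower and 7 higher, with a median of -0.27. Over all genes tested 25.5% were lower and 24.6% higher, and the shares among all genes with the motif were not computed. The 18 genes had a median exon GC content of 51.1% and the others of 44.2%. Of all genes with 50% or more 49.2% were lower, and of those under 45% 3.82% were. After the GC correction the medians with and without the motif were -0.61 and -0.48, with 13 and 17 genes lower. Over all genes 19.0% were then lower. MCM6, whose window holds 4 matches in 2 overlapping pairs, had a log2 fold change of -0.35. GINS2, whose window holds 1, had -1.13. After the GC correction these were -0.78 and -0.93. The cyclic AMP response element occurred in 4 promoters (MCM10, RFC3, RFC1 and EXO1), or 8.51%, against 3.43% of the promoters of tested genes. Of these genes RFC1 and EXO1 were higher and 0 were lower, but after the GC correction 0 were higher, MCM10 was lower and the median was -0.07. The CCAAT box occurred in 61.7% of the matched promoters and in 41.3% of those of tested genes. Of the 29 genes with it 15 were lower and 6 higher, and of the 18 without it 12 were lower and 2 higher. After the GC correction 18 and 12 of these were lower. A match of letters is not evidence of binding.

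Per kilobase of merged exons, MCM7 had the highest level of the 54 genes in Ctrl, at 2185 ± 195 normalized counts per kilobase (SD, n = 3). TK1 at 1505 ± 89.4, CDT1 at 1455 ± 49.9 and PCNA at 1363 ± 144 followed, and these 3 genes did not differ from each other beyond their spread. In NE libraries PCNA was highest per kilobase of merged exons at 1236 ± 144. MCM7 at 893 ± 30.9 was the next, with no overlap between the 2 genes. TK1 and CDT1 followed at 662 ± 29.0 and 608 ± 42.6. The lowest levels in Ctrl were those of BRCA2 at 18.3 ± 7.89, CCNE2 at 23.0, POLA2 at 24.8 ± 1.99 and BRCA1 at 25.0 ± 0.772 normalized counts per kilobase, and POLA2 was the lowest gene in NE libraries at 9.39 ± 3.06. With the longest transcript as length MCM7 was still highest in Ctrl, at 3512 per kilobase, and BRCA2 and CCNE2 lowest, at 21.8 and 30.4. POLA2 was then at 76.9, above BLM at 43.7, BRCA1 at 46.5 and MCM8 at 62.1. The order in NE libraries was not computed with this length, so the first place of PCNA there holds for merged exons only. The levels were not corrected for exon GC content, which is 56.2% for MCM7 and 45.3% for PCNA.

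Genes of the same pathways outside the 54 are given beside the 24.6% higher and 25.5% lower of all genes tested. Of 41 other replication factors 14 were higher (34.1%) and 13 lower (31.7%), with a median log2 fold change of 0.19. After the GC correction 2 were higher (4.88%) and 14 lower (34.1%), beside 13.0% and 19.0% of all genes, with a median of -0.23. The largest changes were those of POLE4, an accessory subunit of polymerase epsilon, at -1.18, RRM2B, an alternative small subunit of ribonucleotide reductase, at 1.17, MTBP, which works with TICRR at origins, at 1.01, and ASF1B, a histone chaperone, at -0.999. After the GC correction these were -1.36, 0.49, 0.31 and -0.59, and MTBP no longer passed (limma adjusted p = 0.134). Of 19 genes of the RB and E2F axis 4 were higher (21.1%) and 5 lower (26.3%), shares near those of all genes. They included CDK4, the kinase that inactivates RB, with 2416, 2560.3 and 2075 normalized counts in Ctrl and 818, 967 and 963 in NE libraries, a log2 fold change of -1.36 and of -1.06 after the GC correction. MYBL2 at -0.998, E2F7 at -0.85 and E2F4 at -0.83 also fell, and after the GC correction they were at -0.42, -1.25 and -0.29, where E2F4 no longer passed (limma adjusted p = 0.0687). Without Ctrl replicate 3 the other replication factors had 23 genes higher and 14 lower of 40 tested, and the RB and E2F axis 11 higher and 5 lower, beside 31.9% and 32.5% of all genes.

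Of 26 other fork repair genes tested 7 were higher and 7 lower, or 26.9% each, close to the shares of all genes, and after the GC correction 2 were higher and 7 lower, beside 13.0% and 19.0%. RAD17, WRN, ATM and ATR, which sense or repair damaged forks, rose by 1.23, 1.16, 1.05 and 0.93 on the log2 scale. After the correction their log2 fold changes were 0.71, 0.51, 0.42 and 0.21, and WRN and ATR no longer passed (adjusted p = 0.0681 and 0.144 from limma). Of 35 genes of G2/M and mitosis 16 were higher (45.7%) and 10 lower (28.6%), with a median log2 fold change of 0.31. After the correction 6 were higher (17.1%) and 9 lower (25.7%), beside 13.0% and 19.0% of all genes, with a median of -0.04. CDC20 and UBE2C, which act in the destruction of mitotic proteins, had log2 fold changes of -1.31 and -1.19, while TTK and CENPE, which act at kinetochores, rose by 1.15 and 1.12 on that scale. After the correction these were -0.81, -0.86, 0.64 and 0.37. Without Ctrl replicate 3 the fork repair genes had 14 higher and 8 lower, and the G2/M genes 17 and 12, beside 31.9% and 32.5% of all genes. The differences between these lists and the 54 replication genes were not tested.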

How the data were processed

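RNA of NCI-H1299 cells was sequenced in 3 Ctrl and 3 NE libraries, grouped by the sample labels. The authors aligned reads to hg38 with HISAT2 2.0.5 and counted them with featureCounts 1.5.0-p3, per the labels. The annotation was not given in the sources used here. The deposited signal, named FPKM by the authors, held counts per gene scaled by a size factor for each library (0.955 to 1.09), and 100% of values were whole reads at a tolerance of 0.01. Intervals cover the spread between libraries.

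Log2(value + 1) was compared with limma 3.58.1 (lmFit, eBayes with trend). The fit took 15013 genes (mean 10 or more), all 6 libraries and no covariates, and p-values were adjusted by Benjamini-Hochberg. An exact permutation test of 3 against 3 libraries cannot go below p = 0.1, so none is given for ratios. GC content and length came from merged exons of the GENCODE annotation, and the GC correction fitted a natural spline (5 degrees of freedom) in each library over 14955 genes. Alternatives, 21 in all, changed the pseudocount, filter, scaling, test (edgeR 4.0.16, DESeq2 1.42.0 on recovered reads), GC and length terms, replicate block and libraries. The GC correction without Ctrl replicate 3 was added after seeing the data. Tests were tried on simulated data.

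The 54 genes, the other lists and the subunit ratios were chosen with earlier results of these data known. All 54 genes are named, and at most 4 genes of each other list, those with the largest change among genes that passed. A marker of the cell line is not reported here.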

Additional observations from a re-analysis of the deposited data

How the results depend on the processing

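Of the 31 replication genes that were lower, 25 passed in limma in each of the 6 fits that left out 1 library, 27 passed after the GC correction, and the log2 fold change of all 31 stayed below 0 in the 21 alternatives, but only 19 passed in all of them. Of the 8 that were higher, 4 passed in each of those 6 fits, 0 after the GC correction, and 0 in all alternatives. With 1 library left out, the number higher ranged from 4 to 10, the number lower from 27 to 32, and the median from -0.48 to -0.39. The number higher was 0 with the GC correction, with GC and length corrected, and with the GC correction and the replicate block, and 1 with the GC correction without Ctrl replicate 3. The number lower by at least 1 on the log2 scale was 2, 3, 2 and 3 under these settings. The median was -0.53 with the GC correction, with or without the block, -0.49 with it and without Ctrl replicate 3, and -0.30 with scaling to total counts. Over all genes tested the number higher was 1945 with the GC correction, 1817 with GC and length, and 1414 with GC and the block, where the number lower was 2156. Per kilobase of the longest transcript MCM7 was at 3512.

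The log2 fold changes that crossed 0 were the following. With the GC correction (with or without the block), with GC and length, and with GC without Ctrl replicate 3, in this order, CCNE2 was at -0.16, -0.084 and -0.23, CHEK1 at -0.10, -0.10 and -0.11, POLA1 at -0.21, -0.32 and -0.35, POLD3 at -0.24, -0.25 and -0.20, POLE2 at -0.58, -0.45 and -0.50, RFC3 at -0.25, -0.11 and -0.21, and RRM1 at -0.21, -0.14 and -0.13. ORC1 was at 0.070 with GC and length and at 0.17 with GC without Ctrl replicate 3, where GINS4 was at 0.081 and RFC1 at -0.00044. MCM8 was at -0.00095 with GC and length. With scaling to total counts GINS4 was at 0.061 and GMNN at 0.025. POLE2 was at -0.054 with quantile normalization, -0.0044 with TMM, -0.016 with edgeR, -0.0060 with DESeq2, and from -0.11 to 0.19 with 1 library left out. The cause of these changes was not tested.

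The deviations of same-numbered libraries from their group means had correlations of -0.16, 0.08 and -0.15. Ctrl replicates 1 and 2 had nearly the same correlation with each NE library, such as -0.16 and -0.17 with NE replicate 1. The check therefore cannot tell whether those replicates were paired by number. With the replicate block 6 replication genes were higher and 31 lower, and POLA1 and CHEK1 no longer passed (adjusted p = 0.0725 and 0.057 from limma). Not every library correlated best with its own number. Reads carry no molecular identifiers, so depth gives a lower limit on the error, and CCNE2, at 88.0 to 175 normalized counts, had the fewest counts of the genes discussed after POLA2 in NE libraries.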
